A study of Spodoptera litura with 9 samples.

Results

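The subject is a small set of 5 long non-coding RNAs (lncRNAs) whose counts were lower in the fusing testis of the prepupa than in the testes before and after fusion. They were measured by RNA sequencing in the tobacco cutworm Spodoptera litura, a moth. There were 3 groups of 3 libraries. L6D4 testes, not yet fused, came from larvae on day 4 of the sixth instar. L6D6 testes, in the course of fusing, came from day 6 of that instar, when the animals are described as prepupae. P0D testes, already fused, came from pupae on day 0. Larvae were reared on an artificial diet, and all groups were kept at 27 °C under 16 h of light and 8 h of dark. The labels give no strain and no treatment, so the groups differ in age and stage, and fusion cannot be told apart from the passage from larva to pupa. The labels speak of 9 males and 3 repeats per stage without saying how the animals were divided. The p-values therefore measure the spread between these libraries, which may be technical. The table holds lncRNAs only, so the tissue label could not be checked against coding markers of testis cells.

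Long non-coding RNAs are transcripts that carry no long open reading frame, and some act by regulating genes in the nucleus or by binding proteins and other RNAs. Testes of many animals express a large and changing set of them as germ cells move through meiosis and sperm formation. In Spodoptera moths the paired larval testes come together into a single organ around pupation, at a time when ecdysteroid hormones drive metamorphosis. The 5 transcripts treated here carry the identifiers of a transcript assembly alone (MSTRG), which the files pair with no gene, position or sequence. No role is known for any of them from these sources, so they are described by their counts.

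The members were chosen by their own counts. From 2476 lncRNA rows, the rule took assembled transcripts that are the only row of their locus in the table (1561 of 1919). Of these it kept those with a mean count of at least 20 and at least 1 L6D4 library above 5 counts, which left 1143. Counts were then scaled for depth by the median-of-ratios method, in which each library is divided by its typical ratio to the average library. A transcript was kept where the highest L6D6 value lay below every L6D4 and every P0D value, and where the L6D4 mean and the P0D mean were each at least 1.5 times the L6D6 mean. The 5 that met this were MSTRG.4215.1, MSTRG.7431.1, MSTRG.10129.1, MSTRG.21261.2 and MSTRG.8628.1, which is 0.437% of the 1143. The dip at L6D6 is thus the ground of choice and is given below as a description that no test supports. L6D6 lay wholly below L6D4, with a mean ratio past the limit, in 141 of the 1143, and P0D lay wholly above L6D6, past the limit, in 42. The mirror image, with L6D6 wholly above both other stages and past the same limits, was met by 20 of the 1143. The limit of 5 counts at L6D4 removes a peak that starts low more readily than a dip. The 20 and the 5 are therefore not counted on an equal footing.

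Depth and composition bear on every value here. Library totals lay between 2665554 and 4262529 lncRNA counts, and size factors between 0.597 and 1.26. The 10 most counted rows of the table held between 59.2% and 72% of a library. Library P0D-3 had the lowest such share and P0D-1 the highest. Scaled counts below are counts divided by the size factor. They may be compared between libraries for a transcript, but not between transcripts, since the files give no transcript length. In bulk testis RNA, fewer cells of a type and less RNA per cell cannot be told apart.

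**Figure D1:**
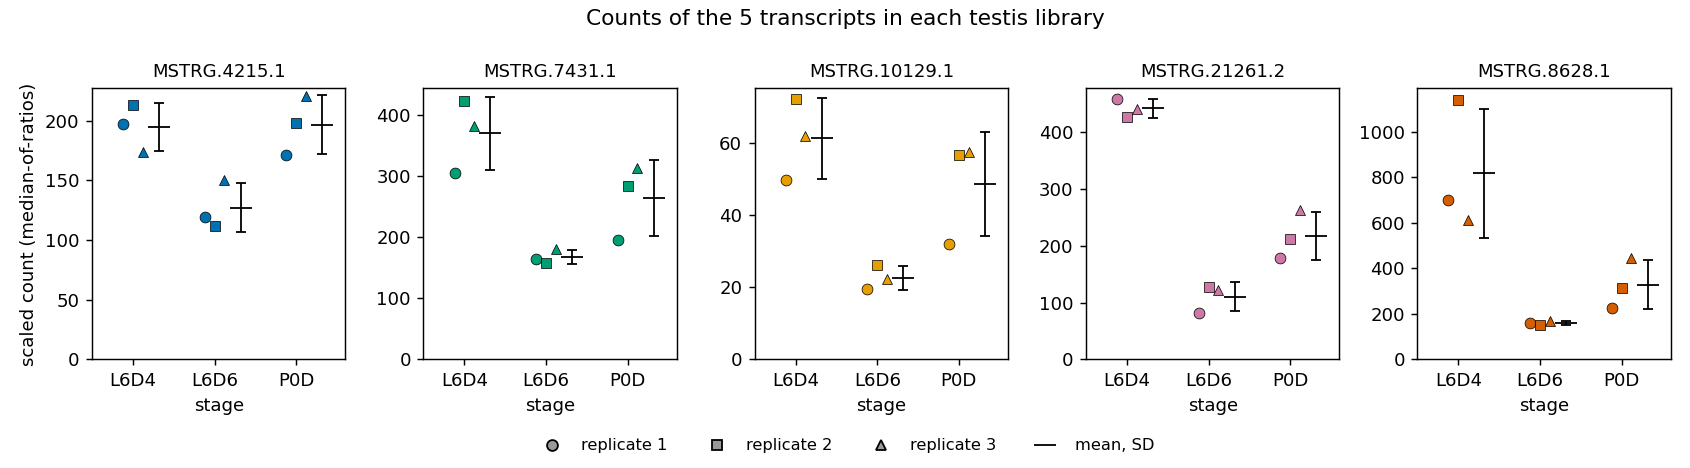
Scaled counts (count divided by the median-of-ratios size factor, linear axis from 0) of the 5 transcripts in each of the 9 libraries, by stage; marker shapes are replicates 1 to 3, and the bar beside them is the mean with its SD (n = 3). In each panel all 3 L6D6 libraries lie below all others, and P0D libraries overlap the L6D4 range in MSTRG.4215.1, MSTRG.7431.1 and MSTRG.10129.1 but stay below every L6D4 library in MSTRG.21261.2 and MSTRG.8628.1.

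MSTRG.8628.1 showed the deepest dip of the 5 relative to L6D4, while relative to P0D the mean at L6D6 was lowest in MSTRG.10129.1. Scaled counts of MSTRG.8628.1 were 700, 1141 and 613 at L6D4, 161, 150 and 169 at L6D6, and 227, 315 and 445 at P0D. The means were 818 ± 283, 160 ± 9.26 and 329 ± 109 (SD, n = 3 each). The L6D6 libraries were close together and stood at 19.6% of the L6D4 mean, while the 2 outer stages were spread widely. The lowest L6D4 value was 3.64 times the highest L6D6 value, and the lowest P0D value was 1.35 times it. The stages did not overlap with one another in any pair. Of the drop below the L6D4 mean, 25.7% had been regained at P0D, and this share lay between 16.9% and 34% when each library was left out in turn. The rule's 1.5-fold limit at P0D sets a lowest share that a member must regain. This floor is higher the shallower the dip, so the shares regained are descriptions only and depend in part on the choice.

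MSTRG.21261.2 followed a like course from a more even start. It had scaled counts of 459, 427 and 441 at L6D4, 81.6, 128 and 122 at L6D6, and 179, 212 and 263 at P0D. The means were 442 ± 16.1, 111 ± 25.3 and 218 ± 42.4 (SD, n = 3 each). L6D6 stood at 25% of the L6D4 mean, and again no stage overlapped another. The exact Poisson 95% interval of P0D-1, divided by its size factor, ran from 155 to 207 scaled counts and lay above that of L6D6-2, the highest L6D6 library (109 to 149). The share regained was 32.4%, between 25.6% and 38.3% with each library left out. Its identifier ends in 2, so the assembly numbered more than a single transcript at this locus. No other has a row in the lncRNA table, so what they are cannot be seen here.

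MSTRG.10129.1 had the fewest counts. Its scaled counts were 49.8, 72.3 and 62 at L6D4, 19.5, 26.2 and 22.2 at L6D6, and 32.1, 56.6 and 57.6 at P0D. The means were 61.4 ± 11.3, 22.7 ± 3.38 and 48.8 ± 14.5 (SD, n = 3 each). L6D6 was apart from both other stages, whereas P0D and L6D4 overlapped. P0D-1, which lay closest to L6D6, had 34 counts as deposited. Its exact Poisson 95% interval, divided by the size factor, ran from 22.2 to 44.8 scaled counts, against 18.1 to 36.8 for L6D6-2, the highest L6D6 library. These intervals overlap, so they do not set P0D-1 apart from L6D6-2 in this transcript at this depth. Overlap of intervals is not itself a test of a difference, and the other L6D6 libraries were not compared in this way. Such intervals cover counting error only. The share regained was 67.5%, between 56.1% and 89% with each library left out.

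MSTRG.7431.1 had scaled counts of 307, 424 and 382 at L6D4, 165, 157 and 181 at L6D6, and 195, 285 and 314 at P0D. The means were 371 ± 59.7, 168 ± 11.9 and 265 ± 62 (SD, n = 3 each). P0D-1 lay only 1.08 times above the highest L6D6 library, while P0D-3 overlapped the L6D4 range. The counting intervals of P0D-1 (170 to 224 scaled counts) and L6D6-3 (156 to 208) overlap, so they do not set these libraries apart either. The share regained was 47.8%, between 35.6% and 64.8% with each library left out.

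MSTRG.4215.1 had the shallowest dip and the fullest return. Its scaled counts were 197, 213 and 174 at L6D4, 119, 112 and 151 at L6D6, and 171, 198 and 221 at P0D. The means were 195 ± 19.8, 127 ± 20.4 and 197 ± 24.8 (SD, n = 3 each). The lowest L6D4 and P0D values were 1.16 and 1.14 times the highest L6D6 value, so the gap on both sides was narrow. P0D and L6D4 overlapped, and the share regained was 103%, between 85% and 122% with each library left out. Its L6D4 mean was only 1.53 times its L6D6 mean, so the rule's 1.5-fold limit at P0D admitted it only with a near-full return. That return was therefore largely set by the choice. It is also the only one of the 5 whose deposited counts carried decimals, in 8 of 9 libraries, as estimated counts do where reads are divided among transcripts. Counting intervals were therefore not compared for it. The other 4 had whole values in all 9 libraries, as had 705 of the 1143 (61.7%). None of the 5 shared its values with another row of the table.

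**Figure D2:**
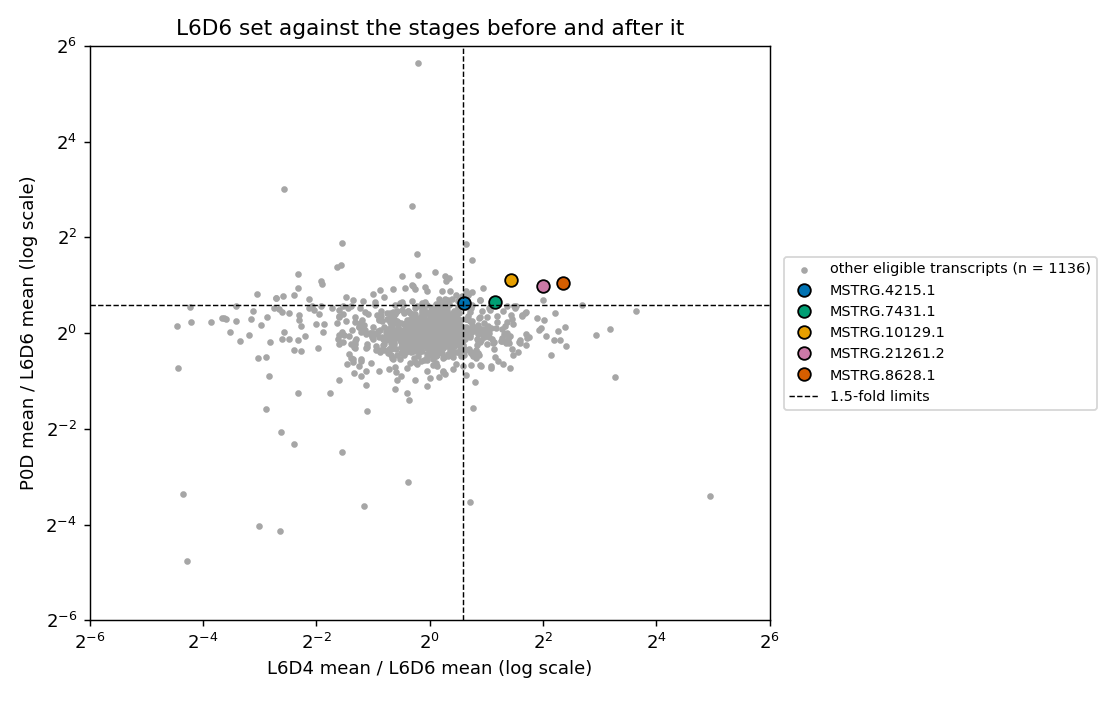
Ratio of the L6D4 mean to the L6D6 mean (horizontal) and of the P0D mean to the L6D6 mean (vertical) on log scales, for the 5 transcripts (coloured) and 1136 of the other eligible transcripts (grey); 1 point lies outside the axes and 1 had a mean of 0 at a stage. Dashed lines mark the 1.5-fold limits of the rule: MSTRG.4215.1 sits on the corner, at 1.53 and 1.54, and MSTRG.7431.1 near the lower edge, at 2.21 and 1.58.

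Transcripts lay close to the limits on both sides of them. MSTRG.4215.1 was just inside both, with an L6D4 mean 1.53 times and a P0D mean 1.54 times the L6D6 mean. MSTRG.7431.1 came next, at 2.21 and 1.58 times. Just outside the first limit were MSTRG.11868.1, at 1.49 and 1.71 times, and MSTRG.1573.1, at 1.43 and 1.6 times. Just outside the second were MSTRG.3680.1, at 1.57 and 1.46 times, and MSTRG.15551.1, at 2.06 and 1.44 times. Another 11 transcripts passed both ratios but had an L6D6 library within the range of another stage, among them MSTRG.10026.1, at 6.45 and 1.5 times. Without the fold limits 24 of the 1143 had L6D6 below every other value, and with 2-fold limits 2 transcripts were left, MSTRG.10129.1 and MSTRG.8628.1.

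Membership leaned on the scaling and on single libraries. With TMM factors, another scaling that compares the bulk of transcripts, all 5 were kept and MSTRG.11868.1 joined them. With library totals as the only scaling, MSTRG.21261.2 alone met the rule. By that scaling the median of the 1143 transcripts moved by 0.31 on the log2 scale at L6D6 relative to L6D4, against -0.01 with median-of-ratios. At P0D relative to L6D6 it moved by 0.01, against 0.003. Scaled counts are relative to the bulk of lncRNA rows. With library totals L6D6 still lay below every L6D4 library in all members but MSTRG.4215.1. It was no longer below every P0D library in any member but MSTRG.21261.2. In CPM of the lncRNA total, the 4 members other than MSTRG.21261.2 had P0D-1 below the highest L6D6 library. MSTRG.7431.1, for example, stood at 48.6 CPM in P0D-1, against 52, 49.3 and 60.9 in the L6D6 libraries. MSTRG.8628.1 stood at 56.5 CPM in P0D-1, against 50.9, 47 and 56.8 in the L6D6 libraries. MSTRG.21261.2 stayed clear, at 44.6, 66.6 and 114 CPM in the P0D libraries, against 25.7, 40.1 and 41.2 in the L6D6 libraries. MSTRG.8628.1, MSTRG.21261.2 and MSTRG.10129.1 met the rule whichever of the 9 libraries was left out. MSTRG.7431.1 failed it without P0D-3, where its P0D mean was 1.43 times the L6D6 mean. MSTRG.4215.1 failed it without P0D-3, L6D4-2, L6D6-1 or L6D6-2.

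The P0D libraries differed in the same way in all 5 transcripts. P0D-1 was the lowest and P0D-3 the highest in each, an order found in 298 of the 1143 transcripts (26.1%). The order was not particular to the 5. Of the transcripts named just outside the fold limits, MSTRG.11868.1 and MSTRG.1573.1 had it, and MSTRG.3680.1 and MSTRG.15551.1 did not. The rule used these P0D values, so the order is a description only. In the 5, the scaled count in P0D-3 was between 1.29 and 1.96 times that in P0D-1, with a median of 1.61, against a median of 0.99 over the 1143. These are the 2 libraries at the ends of the range in the share of the 10 most counted rows, 72% in P0D-1 and 59.2% in P0D-3, and the part of this in the dips was not tested. The summed counts of the 5 made up 0.02% of the lncRNA total in P0D-1 and 0.0561% in P0D-3, against 0.0172% to 0.0217% in the L6D6 libraries. At L6D4 the sum lay between 0.0374% and 0.0607%. At L6D6 no library was the lowest in all 5: L6D6-2 was lowest in 3 and L6D6-1 in 2.

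**Figure D3:**
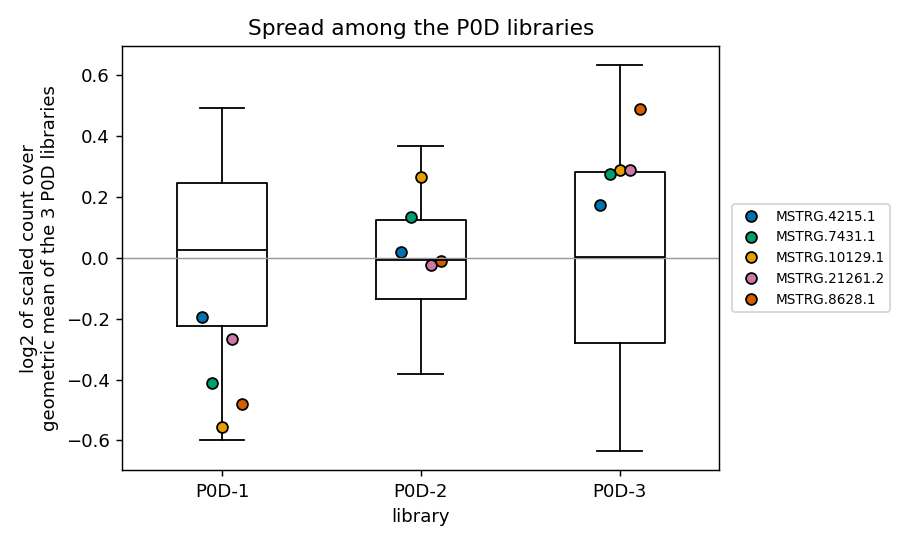
Log2 of the scaled count in each P0D library over the geometric mean of the 3 P0D libraries, for the 5 transcripts (points) and for the 1139 eligible transcripts with no 0 at P0D (boxes: quartiles and median, whiskers from the 5th to the 95th percentile). All 5 points lie below 0 in P0D-1, between -0.55 and -0.19, and above 0 in P0D-3, between 0.17 and 0.49, while the medians of the boxes are near 0.

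P0D was then set against L6D4, which asks whether the counts after fusion had come back to those before it. In edgeR's quasi-likelihood test over the whole table, MSTRG.8628.1 and MSTRG.21261.2 were lower at P0D than at L6D4, and the other 3 did not pass the threshold (Benjamini-Hochberg adjusted p under 0.05). That is 2 of 5 called, beside 26.6% of all 1913 tested rows called in either direction and 12.5% called lower. The median log2 fold change of the 5 was -0.51, beside 0.01 over all tested rows. The rule set each of these stages against L6D6 and fixed no direction between them. However, it took only transcripts in which both means were at least 1.5 times the L6D6 mean. Transcripts that stayed low at P0D were thus left out, and the L6D4 and P0D values tested here are among those that chose the members. The count is therefore no measure of how common such a return is. The p-values and intervals of single members below also take no account of this choice, and are given as descriptions.

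MSTRG.8628.1 had a log2 fold change of -1.34 at P0D over L6D4 (SE 0.28, 95% interval -1.95 to -0.73), with an adjusted p of 0.00426 by edgeR. All 3 P0D libraries lay below all 3 L6D4 libraries. MSTRG.21261.2 had a log2 fold change of -1.05 (SE 0.22, 95% interval -1.53 to -0.56; edgeR adjusted p = 0.0046), also with every P0D library below every L6D4 library. Such separation in this direction was found for 19.9% of tested rows. Both calls held whichever single library was left out. Both ended with library totals as the only scaling, which moves the median of the 1143 transcripts by 0.34 on the log2 scale at P0D relative to L6D4. There the log2 fold changes were -0.89 (edgeR adjusted p = 0.146) for MSTRG.8628.1 and -0.61 (edgeR adjusted p = 0.213) for MSTRG.21261.2.

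MSTRG.7431.1 had a log2 fold change of -0.51 at P0D over L6D4 (SE 0.22), with a 95% interval of -0.998 to -0.02 and an adjusted p of 0.117 by edgeR. Of its P0D libraries 2 of 3 lay below every L6D4 library. MSTRG.10129.1 had -0.35 (SE 0.30, 95% interval -1.02 to 0.31; edgeR adjusted p = 0.419). MSTRG.4215.1 had -0.02 (SE 0.21, 95% interval -0.47 to 0.44; edgeR adjusted p = 0.968). The intervals of the last pair hold both lower and higher levels at P0D, down to 0.494-fold for MSTRG.10129.1 and up to 1.35-fold for MSTRG.4215.1, so a full return is not shown for either. With library totals alone the sign turned for MSTRG.4215.1 (0.39) and MSTRG.10129.1 (0.09), with edgeR adjusted p of 0.389 and 0.89.

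**Figure D4:**
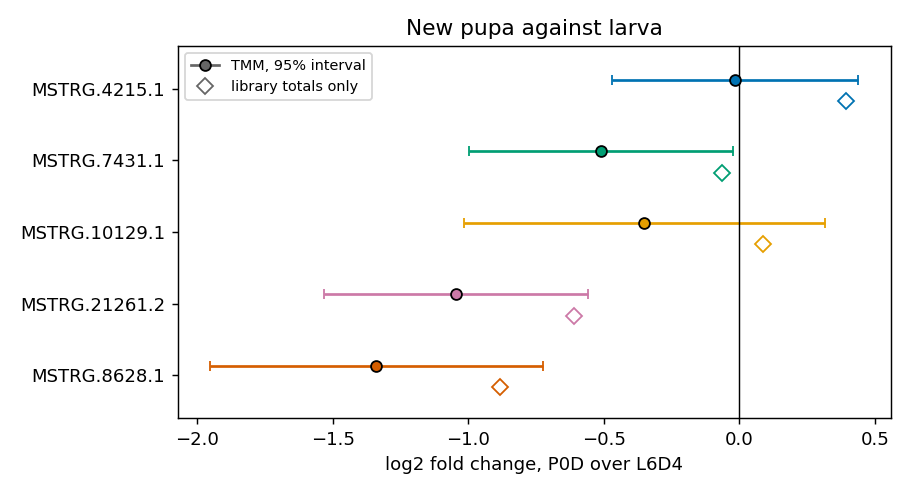
Log2 fold change of P0D over L6D4 for the 5 transcripts by edgeR with TMM scaling (filled circles with 95% intervals) and with library totals only (open diamonds, estimates). The intervals of MSTRG.21261.2 and MSTRG.8628.1 end at -0.56 and -0.73, below 0; each diamond lies to the right of its circle.

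The steps into and out of L6D6 gave the values that chose the members. Their calls are counted only for completeness, restate that choice, and nothing is read from them or from the shares beside them. L6D6 was called lower than L6D4 for 4 of 5 by edgeR, beside 9.1% of tested rows, with log2 fold changes from -2.37 in MSTRG.8628.1 to -0.63 in MSTRG.4215.1, the one not called. DESeq2 (beside 10.8% of its rows) and limma-voom (beside 9.1%) called all 5 lower. P0D was called higher than L6D6 for 0 of 5 by edgeR, beside 0.47% of tested rows. The unadjusted p by edgeR was under 0.05 for 5, whose direction the rule had fixed. The count over all rows, 223 of the 1913 tested, takes either direction and is not like for like. DESeq2 called 2 of the 5 higher, MSTRG.21261.2 and MSTRG.8628.1, beside 1.52% of its rows, and limma-voom called 1, MSTRG.21261.2, beside 0.993%. Without P0D-1 edgeR called 3 higher, MSTRG.21261.2, MSTRG.8628.1 and MSTRG.10129.1, beside 0.865% of the rows then tested. The log2 fold changes of P0D over L6D6 lay between 0.62 in MSTRG.4215.1 and 1.09 in MSTRG.10129.1. The L6D6 libraries are shared by both steps, so the 2 sides of a dip are not independent of each other.

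The coefficient of variation (SD over mean) of the 5 lay between 5.78% and 22.9% at L6D6, between 3.63% and 34.6% at L6D4, and between 12.6% and 33.2% at P0D. The biological coefficient of variation fitted by edgeR lay between 0.198 for MSTRG.4215.1 and 0.259 for MSTRG.10129.1, beside a median of 0.248 over all tested rows.

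The same profile was also looked for outside the assembled single-row loci. Of 196 annotated lncRNA rows past the same count limits, 10 had it (5.1%), and of 265 rows from loci with several rows, 0 had it. The annotated and the assembled rows were not tested against each other. P0D stood between 18.6% and 113% of L6D4 in the 10 annotated rows, with the P0D mean below the L6D4 mean in 9 of them, and between 40.2% and 101% in the 5 assembled ones. The 4 annotated rows with the lowest L6D6 level relative to the other stages were transcripts of LOC111347957, LOC111351442 and LOC111350059 and the transcript XR_002696920.1, which matched no gene of the reference. LOC111351442, for example, averaged 70.6 ± 9.59 scaled counts in L6D4 libraries, 5.06 ± 3.6 in L6D6 libraries and 13.8 ± 6 in P0D libraries (SD, n = 3 each). LOC111350059 averaged 1092 ± 102 scaled counts in L6D4 libraries, 134 ± 2.05 in L6D6 libraries and 328 ± 56.4 in P0D libraries (SD, n = 3 each). In these 4, as in MSTRG.8628.1, MSTRG.21261.2 and by a small margin MSTRG.7431.1, the P0D mean lay nearer to the L6D6 mean than to the L6D4 mean. It lay nearer to the L6D4 mean in MSTRG.10129.1, MSTRG.4215.1 and most of the other annotated rows. The 4 were picked for the depth of their dip, which itself favours a P0D mean nearer to L6D6, so no shared trait is read from this.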

How the data were processed

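The deposited table gives, per lncRNA transcript and for 9 libraries, expected counts (estimated, often with decimals) that are not scaled to depth. Per the labels' protocols, ribosomal RNA was removed and strands were marked with dUTP, although the molecule field reads polyA RNA. The submitters' processing notes name StringTie 1.3.4, HISAT2 2.1.0, DESeq2 1.6.3, Bowtie2 2.2.8 and fastp 0.18.0 without saying what each did. The counter, the genome build and the use of strand in counting are not stated, so an lncRNA that overlaps another gene may hold its reads.

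The rule was applied to the values as deposited (numpy 2.4.6, pandas 2.3.3), with size factors from 1872 rows without a 0. Members and named transcripts were chosen with earlier results of these data known. All 5 members are named; up to 4 annotated rows were named by depth of dip. For tests, values were rounded to whole counts and fitted with edgeR 4.0.16 (R 4.3.3), TMM scaling and the filterByExpr filter grouped by stage, using all 9 libraries (6 residual degrees of freedom), with p-values adjusted by Benjamini-Hochberg over 1913 rows. Tested on simulated data of 1913 rows for P0D against L6D4, the fit recovered 37% of 2-fold and 79% of 4-fold changes. DESeq2 1.42.0 and limma 3.58.1 were alternatives. Annotated accessions were matched without version to RefSeq genes of the assembly ASM270686v4 for names only. Libraries of a stage were not copies of each other (chi-square 15.4 to 126 for each degree of freedom). The highest values were those of P0D-3 with P0D-1 (126) and with P0D-2 (57.6), and all other pairs were at most 29.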

Additional observations from a re-analysis of the deposited data

How the results depend on the processing

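The number of transcripts meeting the rule was 5. It was 1 with library totals, 2 with 2-fold limits and 24 with no fold limit. It lay between 4 and 19 when each library was left out, the highest without L6D6-3. It was 6 with TMM factors, 7 with no minimum of the mean count and 4 with a mean count of 50 or more. With library totals taken without the 10 most counted rows, chosen after seeing the data, it was 4. Over 18 alternatives MSTRG.8628.1 and MSTRG.21261.2 met it in 17 each, MSTRG.10129.1 in 16, MSTRG.7431.1 in 15 and MSTRG.4215.1 in 11.

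In P0D against L6D4, 2 members were called in 15 of 16 alternatives and 0 with library totals only. Rows called ran from 363 to 479 without each library, and 2 members were called in each. The split of 270 higher and 239 lower became 373 and 98 with library totals. The sign of MSTRG.4215.1 turned, with no call, under DESeq2 (0.00278), RLE size factors (0.0041), library totals (0.395), and without L6D4-2 (0.0558), L6D6-1 (0.0009) or P0D-1 (0.106); without each library it ran from -0.0718 to 0.106. That of MSTRG.10129.1 turned with library totals (0.088). In L6D6 against L6D4, members called were 2 with library totals and 4 to 5 without each library, and rows called ran from 272 to 509. In P0D against L6D6, members called were 2 with DESeq2, 1 with limma-voom and 0 to 3 without each library. Rows called were 63 with DESeq2 and 26 to 45 without each library, against 34. The cause of these shifts was not tested.

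Replicate numbers recur across stages, but same-numbered libraries did not deviate together (correlations across rows from -0.18 to 0.16). With the replicate block, 442 rows and 2 members were called in P0D against L6D4. Counting depth limits MSTRG.10129.1 above all, at 22 to 68 counts.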
